A study of Mus musculus with 4 samples.

Results

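Cycling somatic cells of the testis were recognised here by the mRNA of dividing cells together with Vim, the gene of the intermediate filament vimentin, and the absence of germ line mRNA. A barcode was kept when 1000 to 5000 genes were detected, when it held at most 20000 unique molecular identifiers (UMIs, each standing for 1 captured mRNA molecule), and when at most 10% of its UMIs came from mitochondrial genes. A kept cell was counted as a cycling somatic cell when at least 3 of the 5 cycle genes Mki67, Top2a, Cenpf, Birc5 and Ube2c had a UMI, Vim had at least 2 UMIs, and the germ cell genes Ddx4, Dazl and Sycp3 had none. The rule found 176 cells among 41484 kept cells, from 51139 barcodes in all. Of these, 118 came from testicular organoids and 58 from testes.

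The libraries were unsorted single-cell 3′ mRNA libraries of mouse testicular organoids (TOs) and of 28-day-old mouse testes, with 2 libraries per group. TOs were self-assembled from dissociated testes of neonatal mice, which then grew in a basement membrane extract with serum replacement, hormones and antioxidants. One of the labels gave the age of the sequenced TOs as 28 days and another as 21 days. The text and methods of the study gave the older age. No transgene, deletion or sort was described for either group. The supplement of the study called the testis libraries biological replicates, and its methods drew the TOs from independent batches, while the labels gave neither animal nor batch. The p-values measure the spread between these libraries.

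A cell that enters the cycle first switches on the enzymes that make and copy DNA, which marks S phase, and later the kinases, cyclins and spindle proteins of G2 and mitosis. In the mature testis, Sertoli cells are known to have left the cycle before puberty ends, whereas Leydig cells, peritubular cells, fibroblasts, macrophages and vessels can still divide while the organ grows. Most dividing cells of a testis are germ cells, so a somatic cell in division has to be told apart from a spermatogonium or spermatocyte.

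TO replicate 1 gave 38 cycling somatic cells, TO replicate 2 gave 80, testis replicate 1 gave 28 and testis replicate 2 gave 30. The libraries held 106577822, 119966959, 77016449 and 74988295 UMIs in that order, and the cycling somatic cells had medians of 10412.5, 11139.5, 6378 and 10450.5 UMIs per cell. Non-cycling somatic cells, which met the same Vim and germ gene limits and had no UMI of the 5 cycle genes, numbered 2860, 4737, 477 and 264, with medians of 6739, 7823, 4206 and 3609 UMIs. The doublet caller Scrublet, with the number of calls per library set from an expected rate, marked 23.7%, 16.2%, 21.4% and 16.7% of the cycling somatic cells against 9.69%, 9.04%, 8.18% and 4.55% of the non-cycling ones. Pairs of libraries shared 30 to 55 barcodes, and none of the 176 cells had a barcode that occurred in another library.

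RNA of other cells was present in the testis libraries. At least 3 of the 8 spermatid markers (Tnp1, Tnp2, Prm1, Prm2, Acrv1, Spaca1, Tex36 and Ccer1) had a UMI in 27 of the 28 and in all 30 cycling somatic cells of the testes, and in 0 cells of the TOs. The summed level of the 8 genes was 1717 and 2662 UMIs per 1000000 UMIs of the cells summed (CPM) in the cycling somatic cells of the testes, with Prm1, a protamine of the sperm nucleus, the most abundant at 639 and 954 CPM. Non-cycling somatic cells of the testes had more of it, at 4191 and 5093 CPM, and 95.4% and 100% of them had at least 3 of the markers. In the TOs the list summed to 2.46 and 3.44 CPM, with 7 and 6 of its genes at 0. A list of 8 spermatogonia markers summed to 83.7 and 57.3 CPM in the cycling cells of the TOs and to 108 and 53.7 CPM in those of the testes. Non-cycling cells had 171, 88.7, 125 and 75.9 CPM. At least 3 of these markers had a UMI in 5.26% of the cycling cells of TO replicate 1, against 1.26% of its non-cycling ones, and in 0 cycling cells of the other libraries. The part of RNA of other cells in the comparisons that follow was not tested beyond the genes left out below.

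The 5 cycle genes are given as a description, since they chose the cells. Birc5, which encodes the mitotic survival protein survivin, had a UMI in 36 of 38, 78 of 80, 27 of 28 and 27 of 30 cells, with levels of 581, 528, 574 and 474 CPM. Ube2c, the ubiquitin-conjugating enzyme that serves the anaphase-promoting complex, stood at 638, 609, 726 and 685 CPM. Top2a, the topoisomerase that untangles replicated DNA, stood at 374, 369, 547 and 354 CPM. Cenpf, a kinetochore protein, stood at 273, 269, 412 and 259 CPM, and Mki67, the gene of the proliferation antigen Ki-67, at 350, 326, 260 and 224 CPM. Mki67 was higher and Ube2c lower in both TO libraries than in both testis libraries, and the levels of the other genes overlapped between groups. These genes were set aside from the comparison of genes below, so this order is a description and no result. Exactly 3 of the genes were detected in 49 cells, 4 in 46 cells and all 5 in 81 cells.

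Close to the limits of the rule, 213 somatic cells had 2 of the cycle genes and 1481 had 1. In the testes 259 of 829 and 177 of 527 somatic cells carried a single cycle gene, against 505 of 3445 and 540 of 5407 in the TOs. The single gene was most often Birc5, in 41.7% and 53.7% of these testis cells. Just inside the Vim limit were 18 cells with 2 Vim UMIs, and just outside it were 35 cells with 1. A further 80 cells met the other limits but had 1 UMI of a germ cell gene, and 164 had 2 or more.

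The promoters of the 5 cycle genes are shown because these genes defined the cells. Promoters of late cycle genes are known to carry a cell cycle homology region (CHR, searched here as TTTGAA or TTTAAA) and CCAAT boxes. The sequences are the 160 bases before the start site from RefSeq (GRCm38.p6, the assembly also named mm10), 5′ to 3′ on the gene's strand, with matches to either motif on either strand in capitals. They lie at chr7:135716380-135716539 on the minus strand (Mki67), chr11:99024190-99024349 on the minus strand (Top2a), chr1:189688087-189688246 on the minus strand (Cenpf), chr11:117849077-117849236 on the plus strand (Birc5) and chr2:164769769-164769928 on the plus strand (Ube2c).
Mki67: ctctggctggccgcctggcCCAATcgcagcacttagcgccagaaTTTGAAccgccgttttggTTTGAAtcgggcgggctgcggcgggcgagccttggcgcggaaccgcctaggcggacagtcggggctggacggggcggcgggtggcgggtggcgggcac
Top2a: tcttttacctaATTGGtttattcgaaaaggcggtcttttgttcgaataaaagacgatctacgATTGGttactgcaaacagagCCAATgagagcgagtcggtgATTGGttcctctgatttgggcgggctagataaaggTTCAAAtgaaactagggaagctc
Cenpf: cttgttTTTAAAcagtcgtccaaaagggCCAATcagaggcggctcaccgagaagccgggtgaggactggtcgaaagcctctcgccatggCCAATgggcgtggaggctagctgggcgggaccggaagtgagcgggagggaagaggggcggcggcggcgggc
Birc5: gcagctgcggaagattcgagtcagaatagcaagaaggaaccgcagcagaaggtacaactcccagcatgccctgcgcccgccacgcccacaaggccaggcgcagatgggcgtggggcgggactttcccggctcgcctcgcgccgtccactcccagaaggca
Ube2c: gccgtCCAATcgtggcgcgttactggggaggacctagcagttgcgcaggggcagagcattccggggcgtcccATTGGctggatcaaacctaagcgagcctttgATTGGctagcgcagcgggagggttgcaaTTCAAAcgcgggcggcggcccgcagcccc

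Within 250 bases before the start, both motifs occurred in 4 of these promoters, and Birc5 had a CHR match 220 bases before its start, outside the window printed, and no CCAAT box. Of 32851 promoters of the same length in the table, 25.2% held a CHR match, 33.8% a CCAAT box and 8.78% both. Of the 30 genes of the G2 and M phase list, 26 had a promoter in the table, and 10 of them (38.5%) held both motifs. Of the 25 S phase genes 19 had a promoter, 2 of them (10.5%) with both motifs, while an E2F motif (TTTGGCGC, TTTCCCGC, TTTGGCGG or TTTCGCGC) occurred in 7 of the 19 (36.8%) against 1.96% of all promoters. No motif match overlapped a match of another motif in the 5 cycle gene promoters. These matches describe the letters of the windows and are not binding sites.

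Cycle genes outside the rule were raised in the cycling cells of each library. The cells had been chosen on genes of the same programme, so the values are a description. All 25 genes of the S phase list and all 30 genes of the G2 and M phase list were above their level in the non-cycling somatic cells of the same library, in 4 of 4 libraries. Of all 18508 genes with a UMI in the cycling cells, 1522 were above it in all 4 libraries. Dut, which clears dUTP before replication, stood at 283, 265, 217 and 300.0 CPM in cycling cells against 75.5, 71.7, 63.3 and 75.8 CPM in non-cycling cells. Pcna, the sliding clamp of DNA polymerase, stood at 246, 187, 114 and 202 CPM against 56.5, 49.7, 37.8 and 51.6 CPM. Hmgb2, a chromatin protein of dividing cells, stood at 965, 1169, 926 and 726 CPM against 96.3, 74.4, 56.9 and 65.2 CPM. Cdk1, the kinase that drives entry into mitosis, stood at 507, 452, 552 and 524 CPM in cycling cells.

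Outside the rule, the 20 genes with the largest median rise over non-cycling cells included Cenpa, Pclaf, Prc1, Cdc20 and the noncoding RNA Lockd. Their median log2 ratios (each CPM plus 10) ran from 3.31 to 4.82. Cenpa, the centromeric histone, led with 374, 401, 357 and 316 CPM against 3.96, 4.22, 2.73 and 3.03 CPM. Pclaf, a partner of Pcna, followed with 495, 281, 341 and 303 CPM against 1.44, 0.938, 3.19 and 4.55 CPM. Prc1 and Cdc20, which bundle the central spindle and activate the anaphase-promoting complex, reached 259 to 493 and 363 to 666 CPM. The replication-dependent histone gene Hist1h2ap differed widely between libraries of a group, with 783 and 186 CPM in the TOs and 823 and 60 CPM in the testes.

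The S phase list took 0.212% and 0.167% of the UMIs of cycling cells in the TOs and 0.154% and 0.211% in the testes. The groups overlapped, with 0.190% ± 0.032 (SD, n = 2) in the TOs and 0.183% ± 0.040 (SD, n = 2) in the testes, and the exact two-sided permutation test over libraries gave p = 0.667. The G2 and M phase list took 0.623%, 0.641%, 0.725% and 0.549% of the UMIs. Per cell, G2 and M phase UMIs outnumbered S phase UMIs in 32 of 38, 69 of 80, 25 of 28 and 23 of 30 cells, and the rule itself uses genes of late phases. In non-cycling somatic cells the G2 and M phase list held 0.0389% and 0.0311% of UMIs in the TOs and 0.0745% and 0.0798% in the testes. Germ cells without Vim, many of which divide themselves, held 0.433%, 0.517%, 0.268% and 0.357%.

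**Figure D1:**
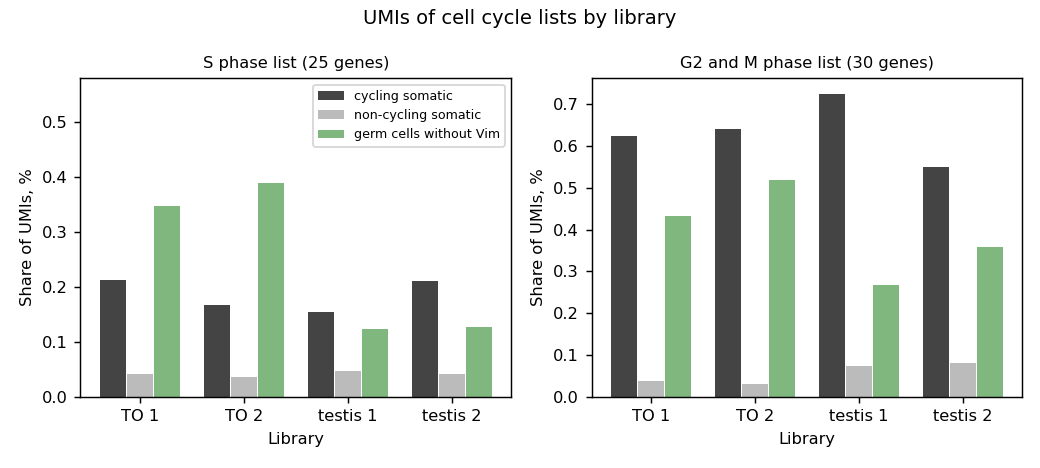
Share of UMIs (%, vertical axis) of the S phase list (left) and the G2 and M phase list (right) in each of the 4 libraries, with 1 bar each for cycling somatic cells, non-cycling somatic cells and germ cells without Vim. Cycling somatic cells stood above non-cycling ones in each library, and the non-cycling level of the G2 and M phase list was 0.0389% and 0.0311% in the TOs and 0.0745% and 0.0798% in the testes.

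Cycling somatic cells were a small share of each library. They made up 0.353% (38 of 10759; 95% exact binomial interval 0.250 to 0.484%) and 0.845% (80 of 9463; 0.671 to 1.05%) of the cells kept from the TOs. In the testes they made up 0.259% (28 of 10804; 0.172 to 0.374%) and 0.287% (30 of 10458; 0.194 to 0.409%). Both TO values lay above both testis values, with means of 0.599% ± 0.348 and 0.273% ± 0.020 (SD, n = 2 each). The exact two-sided permutation test gave p = 0.333, which is the smallest p that 2 libraries against 2 allow. When each cell was first thinned to 2000 UMIs, the shares were 0.139%, 0.172%, 0.221% and 0.0977%, the groups overlapped, and the difference turned to -0.0038 percentage points (exact p = 1). The groups also overlapped with at least 2 cycle genes, with at least 1 Vim UMI and with at most 1 germ gene UMI. The differences were 0.217, 0.301 and 0.219 percentage points in that order.

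Relative to somatic cells alone the order was the opposite. Of the cells with at least 2 Vim UMIs and no germ gene UMI, 1.10% (38 of 3445; 0.782 to 1.51%) and 1.48% (80 of 5407; 1.17 to 1.84%) were cycling in the TOs. In the testes 3.38% (28 of 829; 2.26 to 4.84%) and 5.69% (30 of 527; 3.87 to 8.03%) were cycling. The means were 1.29% ± 0.27 and 4.54% ± 1.64 (SD, n = 2 each), 3.51 times as high in the testes, with exact p = 0.333. After thinning to 2000 UMIs the shares were 0.809%, 0.631%, 2.37% and 2.03%, again without overlap. With no cap on genes or UMIs per cell, the TOs gave 63 and 162 cycling cells and the testes 28 and 31, which put the ratio of testes to TOs at 2.15 and the difference among all cells kept at 0.744 percentage points. With 2 cycle genes as the minimum the ratio was 5.83 and the difference among somatic cells -11.4 percentage points. With at least 4 Vim UMIs that difference was -5.26 percentage points. Without cells that had a UMI of other spermatogonia or spermatocyte markers it was -1.93 percentage points. Among all cells kept it was then 0.199 percentage points, and there the groups overlapped. The intervals cover counting error only.

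The somatic cells that reached the rule were not the same share of all somatic cells in the 2 groups. Of cells with at least 3 interstitial stroma markers, 32.0% and 65.2% passed both the Vim and the germ gene limit in the TOs, against 25.8% and 31.1% in the testes. Of cells with at least 3 Leydig markers the figures were 37.9% and 57.8% against 44.0% and 28.5%. Of cells with at least 3 macrophage markers, 48.5% and 43.8% passed in the TOs against 19.3% and 28.2% in the testes. In the testes 29.8% and 31.5% of kept cells had no UMI of Ddx4, Dazl or Sycp3, against 63.9% and 79.7% in the TOs. The shares above therefore hold for the cells that passed, and the part of these limits in the difference was not tested.

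**Figure D2:**
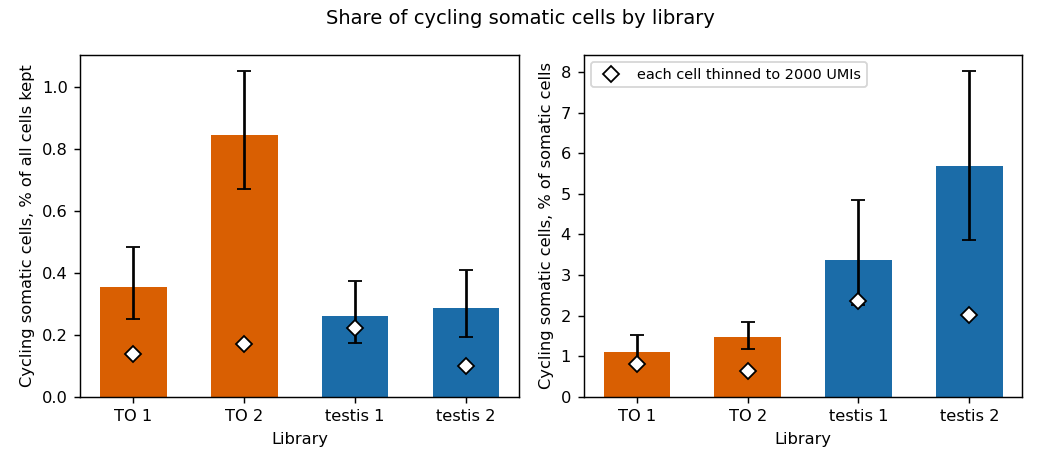
Share of cycling somatic cells (%) among all cells kept (left) and among somatic cells (right) in each library, as bars with 95% exact binomial intervals and, as diamonds, after thinning each cell to 2000 UMIs. Among all cells the TO bars were higher (0.353% and 0.845% against 0.259% and 0.287%), and among somatic cells the testis bars were higher (3.38% and 5.69% against 1.10% and 1.48%).

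Markers of 5 somatic cell types were read in the cycling cells, where a UMI of a marker is a detection and not an identity. At least 1 of them had a UMI in all but 17 of the 176 cells, 78 cells carried 1 marker, 65 carried 2, 14 carried 3 and 2 carried 4. Hsd3b1, a steroid enzyme of Leydig cells, was detected in 89 cells, Pdgfra, a growth factor receptor of interstitial cells, in 73, and C1qa, a complement gene of macrophages, in 54. Cldn11, the tight junction claudin of Sertoli cells, was detected in 23 cells and Myh11, the smooth muscle myosin, in 19. Hsd3b1 and Pdgfra occurred together in 44 cells, which made them the most frequent pair, and C1qa shared 13 cells with Hsd3b1 and 11 with Pdgfra, all of them in the TOs.

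C1qa separated the groups. It had a UMI in 55.3% (21 of 38) and 36.2% (29 of 80) of the cycling cells of the TOs, against 7.14% (2 of 28) and 6.67% (2 of 30) in the testes. The difference of 38.9 percentage points, with no overlap between groups, had exact p = 0.333, the smallest possible. In non-cycling somatic cells C1qa was detected in 5.91%, 8.82%, 5.87% and 7.95% of cells, and in germ cells without Vim in 2.22%, 3.72%, 1.16% and 0.943%, at median depths of 8116, 8647.5, 7396 and 4380.5 UMIs. Thinned to 2000 UMIs, 56.8%, 30%, 7.14% and 6.67% of the cycling cells had it. Its level was 1842 and 750 CPM in the cycling cells of the TOs and 309 and 117 CPM in those of the testes.

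Hsd3b1 was found in 60.5%, 50%, 50% and 40% of cycling cells, and Pdgfra in 36.8%, 42.5%, 46.4% and 40%. For both markers the groups met or overlapped (exact p = 0.667 each). Non-cycling somatic cells had Hsd3b1 in 39.0%, 23.5%, 35.8% and 17.4% of cells and Pdgfra in 61.7%, 78.2%, 28.9% and 34.1%. Germ cells without Vim had a UMI of Hsd3b1 in 32.2%, 17.7%, 2.51% and 1.85% of cells and of Pdgfra in 11.9%, 7.62%, 0.793% and 0.492%, so this background was higher in the TOs. Pdgfra was less frequent in cycling than in non-cycling cells of both TO libraries and more frequent in both testis libraries. At 2000 UMIs per cell it was the less frequent one in cycling cells of each library, at 16.2%, 17.5%, 14.3% and 20% against 36.6%, 51.5%, 16.8% and 23.9%.

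Cldn11 and Myh11 were detected in fewer cycling cells. Cldn11 had a UMI in 34.2%, 11.2% and 3.57% of cycling cells of TO replicate 1, TO replicate 2 and testis replicate 1, and in 0 of 30 cells of testis replicate 2, which allows a share of up to 10.0% when the limit is set at 3 counts of the total (95% exact binomial upper bound 11.6%). The groups did not overlap for Cldn11 either, with a difference of 20.9 percentage points (exact p = 0.333). In TO replicate 1 germ cells without Vim had Cldn11 in 23.0% of cells. After thinning, cycling cells had it in 2.70% and 6.25% of the cells of the TOs against 6.86% and 1.27% of these germ cells, so the thinned value of TO replicate 1 was below that of cells that should lack the gene. Myh11 was detected in 10.5%, 10.0%, 17.9% and 6.67% of cycling cells and in 29.1%, 27.1%, 22.4% and 29.2% of non-cycling ones, with 6.97%, 2.66%, 1.19% and 1.23% in germ cells without Vim.

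The reverse question is how many of the somatic cells with a marker were cycling. Among somatic cells with at least 2 C1qa UMIs, 12.9% (21 of 163) and 7.46% (27 of 362) were cycling in the TOs and 3.85% (2 of 52) and 4.00% (2 of 50) in the testes. Among those with at least 2 Pdgfra UMIs the order was opposite, with 0.511% (7 of 1370) and 0.716% (25 of 3494) in the TOs and 6.82% (6 of 88) and 11.4% (8 of 70) in the testes. For Hsd3b1 the shares were 2.41%, 4.56%, 5.06% and 9.28%, and for Myh11 0.272%, 0.388%, 2.56% and 0.893%. Behind them were 18, 35, 12 and 9 cycling cells for Hsd3b1 and 2, 4, 4 and 1 for Myh11. In testis replicate 2 the Myh11 share was 1 of 112 cells. Its exact binomial interval, 0.0226 to 4.87%, held both Myh11 shares of the TOs. None of these 4 markers overlapped between groups, and each had exact p = 0.333, or 0.542 after Benjamini-Hochberg adjustment over the 13 library tests made here. For macrophages this order held within the Vim and germ gene limits. Among all kept cells with at least 3 macrophage markers, at least 3 cycle genes were detected in 11.4% (39 of 342) and 4.36% (37 of 848) in the TOs and 5.47% (15 of 274) and 5.08% (9 of 177) in the testes, which overlapped. For Cldn11 the shares were 0.403%, 0.901%, 1.25% and 0% (0 of 17), with overlap (exact p = 1). With each cell thinned to 2000 UMIs, the differences for Hsd3b1 and Myh11 changed sign, to 2.09 and 0.36 percentage points. The thinned C1qa shares were 8.14% and 1.52% in the TOs and 2.70% and 0% in the testes, which overlapped. Those of Pdgfra were 0% and 0.64% against 3.125% and 0%, so the groups met. At most 7 cycling cells per library lay behind each of these thinned shares.

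**Figure D3:**
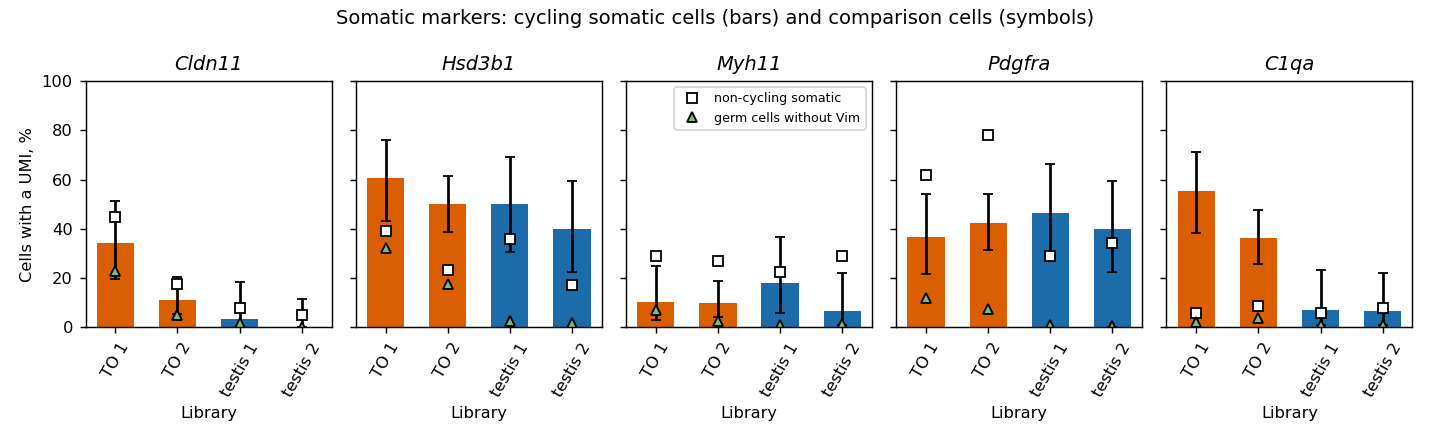
Cells with a UMI of each somatic marker (%, vertical axis) in each library. Bars show cycling somatic cells with 95% exact binomial intervals, squares non-cycling somatic cells and triangles germ cells without Vim, and C1qa stood at 55.3% and 36.2% in the cycling cells of the TOs against 7.14% and 6.67% in those of the testes.

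Each cell was then assigned to the marker list of which it had most genes, with at least 3 detected. The lists followed known markers of Sertoli, Leydig, myoid, stromal, macrophage, endothelial, rete, lymphoid and Schwann cells, and 173 of the 176 cells had at least 3 markers of a list. Over all libraries, Leydig markers led 61 cells (31 in the TOs and 30 in the testes) and macrophage markers 50 (46 and 4). Fewer cells were led by interstitial stroma (20), endothelial (15), myoid (8) and Sertoli (6) markers. Another 12 cells were tied, all of them in the TOs, 1 was led by rete markers, 3 had too few markers, and none was led by lymphocyte or Schwann cell markers. The assignment is a count of markers and not a cluster, and the leading list was ahead by at most 1 gene in 12, 33, 2 and 0 cells. Counted without ties, at least 3 Leydig markers were found in 14, 33, 16 and 14 cycling cells and at least 3 macrophage markers in 21, 27, 2 and 2. At least 3 interstitial stroma markers were found in 15, 35, 13 and 10. By this count macrophage markers were the most frequent in TO replicate 1 and stroma markers in TO replicate 2, whereas by the leading list macrophage markers came first in both.

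The makeup of the cycling cells differed between TOs and testes. Macrophage markers led 20 of 38 and 26 of 80 cells of the TOs and 2 of 28 and 2 of 30 cells of the testes. Endothelial markers led 4 of 28 and 11 of 30 cells of the testes and 0 of 118 cells of the TOs, which allows a share of up to 2.54%. Among non-cycling somatic cells the TOs had 1 and 0 endothelial-led cells, so such cells were nearly absent from the TOs in either state. Leydig markers led 9 of 38, 22 of 80, 16 of 28 and 14 of 30 cells, or 23.7%, 27.5%, 57.1% and 46.7%. By at least 3 Leydig markers the shares were 36.8%, 41.2%, 57.1% and 46.7%, so the gap between groups was smaller by this count. Among non-cycling cells Leydig markers led 12.9%, 8.06%, 39.0% and 18.6%, while at least 3 of them were found in 26.3%, 12.9%, 41.3% and 18.6%, which overlapped between groups. In the same non-cycling cells macrophage markers led 3.18%, 4.81%, 5.45% and 7.20%. Interstitial stroma markers led 2, 14, 2 and 2 cycling cells (5.26%, 17.5%, 7.14% and 6.67%), while in non-cycling cells they led 35.1%, 60.4%, 17.4% and 30.7%. At least 3 of them were found in 39.5%, 43.8%, 46.4% and 33.3% of cycling cells. In non-cycling cells the shares were 65.8%, 79.2%, 45.3% and 52.7%, so by this count the gap was smaller and absent in testis replicate 1. Sertoli markers led 1 and 5 cells in the TOs and 0 of 58 in the testes, which allows up to 5.17%. Cycling cells were deeper than non-cycling ones, with medians of 10412.5, 11139.5, 6378 and 10450.5 against 6739, 7823, 4206 and 3609 UMIs. The list counts here and in the next paragraph were not thinned, and the part of depth in them was not tested.

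Many barcodes carried markers of more than 1 list. At least 3 markers of 2 lists or more were found in 52.6%, 45.0%, 39.3% and 30% of the cycling cells, and in 59.4%, 48.0%, 31.9% and 23.5% of the non-cycling ones. The most frequent pair was Leydig with interstitial stroma, in 9, 16, 10 and 8 cycling cells. Germ cells without Vim, which should lack these genes, had 3 Leydig markers in 6.97%, 0.709%, 0.165% and 0.615% of cells and 3 macrophage markers in at most 0.205%. They had 3 interstitial stroma markers in 8.24%, 6.38%, 0.595% and 0.533% of cells. For Sertoli markers the shares were 9.83%, 1.60%, 0.430% and 0.123%, and for myoid markers 9.83%, 2.30%, 1.32% and 0.697%. In single-cell data of this kind a barcode can hold 2 cells or free RNA, and the part of either in these counts was not tested.

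**Figure D4:**
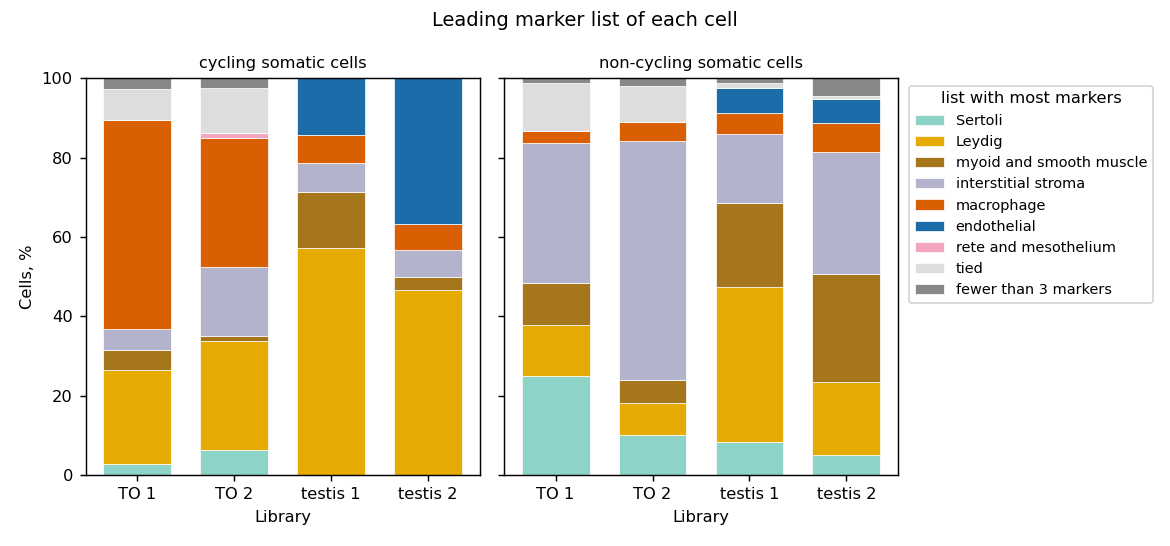
Percent of cells (vertical axis) by the marker list with most detected genes, for cycling (left) and non-cycling somatic cells (right) in each library, with ties and cells with fewer than 3 markers shown apart. Macrophage markers led 20 of 38 and 26 of 80 cycling cells of the TOs, and endothelial markers led 4 of 28 and 11 of 30 of those of the testes.

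The Leydig-led cycling cells were assigned by Cyp11a1, Hsd3b1, Cyp17a1, Insl3, Star, Lhcgr and Hsd3b6, so detection of these genes is no finding. Within these cells Star, Hsd3b6 and Cyp17a1 were lower in both TO libraries than in both testis libraries. Cyp11a1, the enzyme that starts steroid synthesis from cholesterol, stood at 2241, 1310, 1905 and 1935 CPM, and Hsd3b1 at 2241, 1697, 704 and 620 CPM. Hsd3b6, a closely related enzyme typical of adult Leydig cells, was at 0 and 127 CPM in the TOs and at 572 and 690 CPM in the testes. Star, which brings cholesterol into mitochondria, had 1 and 0 UMIs in the 31 Leydig-led cells of the TOs and 25 and 81 UMIs in the 30 of the testes (9.19, 0, 207 and 474 CPM). All cycling cells of the TOs together held 11 and 1 Star UMIs and 15 and 48 Hsd3b6 UMIs, so part of them lay in cells not led by Leydig markers. Over all cycling cells Star stood at 27.1, 1.15, 135 and 256 CPM. Cyp17a1, needed for androgens, stood at 423, 29.8, 1168 and 6167 CPM. Non-cycling Leydig-led cells had the same order between groups for Hsd3b6 (16.9, 89.9, 680 and 1216 CPM), Star (53.1, 19.2, 393 and 769 CPM) and Cyp17a1 (1562, 151, 3600 and 11334 CPM). Cyp17a1 was lower in the cycling than in the non-cycling Leydig-led cells of each library. Hsd3b1 and Hsd3b6 are close paralogs, so reads may be split between them with error.

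The macrophage-led cycling cells were assigned by the C1q genes, Csf1r, Adgre1, Cd68, Ptprc and Cd74, so their detection is no finding. Csf1r, the receptor that sustains macrophages, was detected in 85.0% and 92.3% of them, at 430 and 449 CPM against 376 and 518 CPM in the non-cycling macrophage-led cells. Cd74, the invariant chain of MHC class II, stood at 37.0 and 15.4 CPM in cycling and at 137 and 564 CPM in non-cycling macrophage-led cells of the TOs. Cdkn1a, the gene of the inhibitor p21, stood at 560 and 127 CPM against 313 and 40.8 CPM. With 2 macrophage-led cycling cells in each testis library, no level is given for them.

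The endothelial-led cycling cells of the testes were assigned by genes that include Cldn5, Egfl7 and Kdr. Compared with non-cycling cells assigned in the same way, Cldn5 was at a lower level and Egfl7 and Kdr at a higher level in both libraries. Cldn5, the endothelial claudin, stood at 1704 and 2733 CPM in the 4 and 11 cycling cells and at 2977 and 3670 CPM in non-cycling cells. Egfl7, a secreted vessel protein, stood at 1146 and 710 CPM against 785 and 521 CPM, and Kdr, a receptor for vascular growth factor, at 620 and 272 CPM against 434 and 249 CPM. The 14 stroma-led cycling cells of TO replicate 2 had Col1a1, a chain of type I collagen, at 5084 CPM against 2470 CPM in non-cycling ones.

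Cycling somatic cells of TOs and testes were then compared gene by gene on the UMIs summed per library. Of the macrophage list 5 of 7 genes compared were called higher in the TOs, and of the endothelial list 5 of 6 were called lower. In such sums more cells of a type and more mRNA per cell cannot be told apart. Of 6655 genes fitted with edgeR's quasi-likelihood test, 301 were left out because the other kept cells of a condition had at least 5 times the level of its cycling cells, and 6348 were compared after the rule genes were set aside. That limit also removed any gene with no UMI in the cycling cells of a condition but some in its other cells. A gene was called at a Benjamini-Hochberg adjusted p under 0.01 and a log2 fold change beyond 1 in size. With this, 172 genes (2.71%) were called, 57 (0.898%) higher and 115 (1.81%) lower in the TOs, and 1152 (18.1%) had an unadjusted p under 0.05. The median log2 fold change of all genes compared was 0.05. With the limit on other cells at 2 times in place of 5, 51 genes were higher and 47 lower in the TOs. With no gene left out the numbers were 66 and 295, so the excess of lower genes depended on this limit.

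Lyz2, the lysozyme of macrophages, whose paralog Lyz1 can share reads, stood at 14025 and 5744 CPM in the TOs and 542 and 123 CPM in the testes. Its log2 fold change was 4.99 ± 0.76 (SE), with an edgeR adjusted p of 0.00492. Lgals3, the lectin galectin-3 of activated macrophages, stood at 520 and 284 CPM against 5.42 and 9.47 CPM, a ratio of 45.0 over 459 and 4 UMIs (95% counting interval 17.4 to 166). S100a4, a calcium-binding protein of motile cells, stood at 985 and 279 CPM against 37.9 and 12.6 CPM (log2 fold change 4.82 ± 0.78, edgeR adjusted p = 0.00611). Both TO libraries were above both testis libraries for these genes.

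The other genes of this group had 1 to 3 UMIs in the cycling cells of the testes. Fxyd2, a regulator of the sodium pump, had 314 UMIs in the TOs and 1 in the testes, a ratio of 123 (95% counting interval 21.9 to 4876). Fabp7, a fatty acid carrier, had 214 and 1 UMIs, and Mitf, a transcription factor of pigment cells and macrophages, 139 and 1. Non-cycling somatic cells of the testes did have Mitf, at 19.6 and 15.2 CPM against 27.7 and 33.0 CPM in the TOs, and Fxyd2, at 6.38 and 9.86 CPM against 29.7 and 18.9 CPM. Cd72, Hephl1, Vstm2b and Lpl had 153, 106, 89 and 205 UMIs in the TOs and 1, 1, 1 and 3 in the testes. Their edgeR adjusted p-values lay between 0.00479 and 0.00973.

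Among the lower genes, Esam, an adhesion molecule of vessel walls, stood at 0 and 1.15 CPM in the TOs and at 222 and 319 CPM in the testes. It had 1 UMI in the TOs and 142 in the testes, a ratio of 362 (95% counting interval 64.0 to 14411; edgeR adjusted p = 0.00162). Emcn, a sialomucin of vessels, had 3 and 74 UMIs, Tspan13 2 and 109, Mmrn2 1 and 41, Abcb1a 1 and 82, Mecom 1 and 70, and Adgrf5 1 and 30. Ass1, the enzyme that makes argininosuccinate from citrulline, stood at 14.8 and 4.58 CPM against 1121 and 537 CPM, a log2 fold change of -6.55 ± 0.62 (SE, edgeR adjusted p = 0.00211). Krt88 and Spag6, the latter a protein of the sperm flagellum, had 1 UMI each in the TOs and 37 and 29 in the testes. Of the 115 lower genes, 49 (42.6%) had at least 2 times the level in the other kept cells of the testes, and their part from free RNA was not tested.

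These counts moved with single libraries, in fits where 1 group kept 1 library that was assumed to vary like the other group. Without TO replicate 1, TO replicate 2, testis replicate 1 or testis replicate 2, the number of higher genes was 136, 254, 21 and 1, and the number of lower genes 157, 165, 61 and 14. Of the 57 higher and 115 lower genes, 0 and 13 were called without testis replicate 2, and 13 and 49 without testis replicate 1. Leaving out every cell with at least 3 macrophage markers, an alternative added after the data were seen, left 24 higher and 91 lower genes, 11 and 78 of which were among those first called, and leaving out cells with 3 markers of several lists left 14 and 50.

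**Figure D5:**
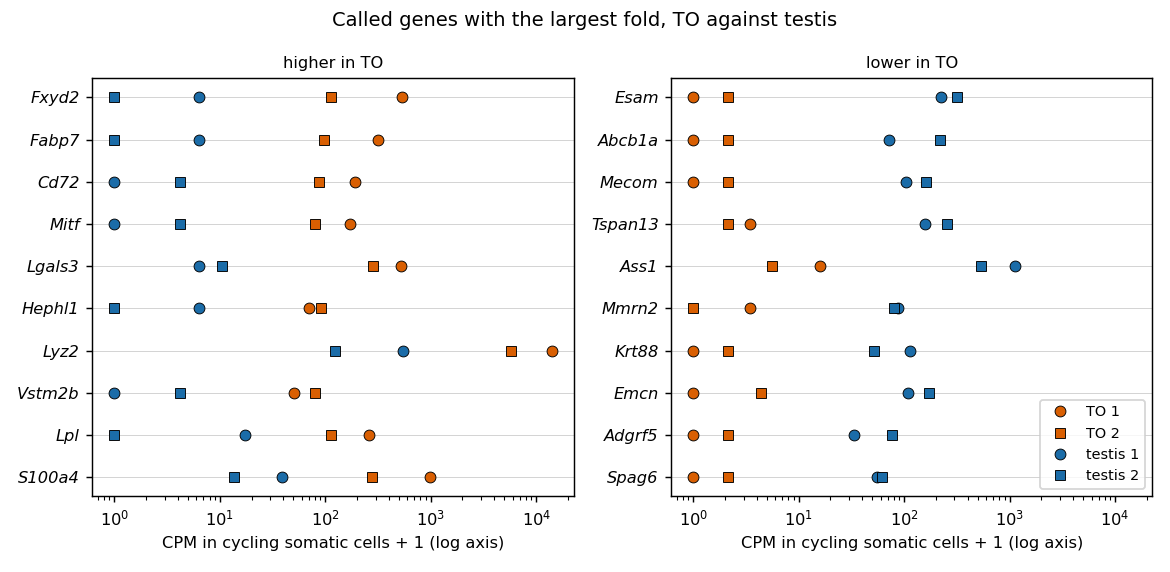
Level in cycling somatic cells (CPM plus 1, log axis) of the 10 called genes with the largest fold in each direction, with 1 point per library. Lyz2 stood at 14025 and 5744 CPM in the TOs against 542 and 123 CPM in the testes, and Esam at 0 and 1.15 CPM against 222 and 319 CPM.

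By list, the macrophage and endothelial genes held most of the calls. Of the 8 macrophage genes 7 were compared and 5 were called higher (C1qb, C1qc, Cd68, Adgre1 and Ptprc), with a median log2 fold change of 3.30 over the 7. C1qc stood at 1709 and 807 CPM against 227 and 148 CPM, and C1qa missed the threshold with an edgeR adjusted p of 0.019, while DESeq2 called all 7. Of the 8 endothelial genes 6 were compared and 5 were called lower (Egfl7, Emcn, Kdr, Vwf and Pecam1), with a median of -5.16, and Cldn5, with 0 UMIs in the TOs, was left out by the limit on other cells. DESeq2 called 4 of these endothelial genes and not Kdr. The endothelial list summed to 34.5 and 55.0 CPM in the cycling cells of the TOs and to 894 and 1939 CPM in those of the testes. Of 7 Leydig genes Hsd3b6 was called lower, at 36.9 and 55.0 CPM against 374 and 373 CPM (log2 fold change -2.95 ± 0.32, edgeR adjusted p = 0.00211), and the list's median was -1.84. DESeq2 called Lhcgr, the receptor for luteinizing hormone, lower as well.

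No gene of the S phase list (21 compared, median 0.08) or of the G2 and M phase list (30 compared, median -0.04) was called by edgeR, and neither list had a gene with an unadjusted p under 0.05 or a DESeq2 call. Of 14 genes of cell cycle control none was called by edgeR or DESeq2 and 1 had an unadjusted p under 0.05. That gene, Cdkn1a, stood at 332 and 52.7 CPM against 5.42 and 22.1 CPM (log2 fold change 3.61 ± 1.03, edgeR adjusted p = 0.0651). Ccnd1, the cyclin that answers growth factors, stood at 313, 49.3, 108 and 120.0 CPM. Of 7 growth factor and receptor genes Igf1 was called higher, at 377 and 312 CPM against 43.3 and 37.9 CPM (log2 fold change 3.12 ± 0.35, edgeR adjusted p = 0.00229). Without the cells with macrophage markers Igf1 missed the threshold, with a log2 fold change of 2.31 ± 0.51 and an adjusted p of 0.020.

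In the matrix list none of 11 genes was called by edgeR or DESeq2, and 5 had an unadjusted p under 0.05. Sparc, a collagen-binding protein, stood at 2647, 2752, 5567 and 4109 CPM, and Col1a2 at 308, 953, 276 and 63.2 CPM. All 9 immediate-early genes compared had a positive log2 fold change, with a median of 0.69, and Junb stood at 581, 344, 227 and 309 CPM. Neither edgeR nor DESeq2 called any of the 9. In edgeR 1 had an unadjusted p under 0.05, a threshold passed by 18.1% of all genes compared. Whether the list differed as a set was not tested. None was called among the 4 hypoxia response, 3 imprinted growth, 7 interstitial stroma, 4 myoid, 3 Sertoli and 1 spermatogonia genes compared, by edgeR or DESeq2. Of these, 1, 0, 4, 0, 2 and 0 had an unadjusted p under 0.05 in the order hypoxia response, imprinted growth, stroma, myoid, Sertoli and spermatogonia. Dcn, a proteoglycan of stroma, stood at 470, 862, 357 and 133 CPM, and Aard, a Sertoli marker, at 239, 278, 244 and 227 CPM. No gene of the rete, lymphocyte, Schwann, spermatocyte and spermatid lists was compared, 7 of the 8 spermatid genes having been left out.

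The last comparison asked whether the rise or fall with cycling differed between TOs and testes. In a model with the library as a term, 169 of 10709 genes (1.58%) had a called interaction, 146 (1.36%) with a larger ratio of cycling to non-cycling cells in the TOs and 23 (0.215%) with a smaller one. Of the macrophage list, 7 of 8 genes were among the 146, C1qa for instance at 1842 and 750 CPM in cycling against 103 and 132 CPM in non-cycling cells of the TOs, and at 309 and 117 against 215 and 271 CPM in the testes (interaction 3.82 ± 0.46 on the log2 scale, edgeR adjusted p = 3.26e-06). The 5 most negative genes were Ly6c1, Slc9a3r2, Epas1, Cxcl12 and Ets1. Of the 6 endothelial genes compared, 0 had a called interaction in edgeR, and 3 had an unadjusted p under 0.05. Of 18 cell cycle control genes Cdkn1a had a called positive interaction (2.86 ± 0.57, edgeR adjusted p = 0.00234). So did 2 of 10 growth factor and receptor genes (Igf1 and Tgfbr2) and 1 of 7 Leydig genes (Hsd3b6). Cxcl12, a chemokine, stood at 17.2 and 16.04 CPM in cycling and 76.7 and 108 CPM in non-cycling cells of the TOs, and at 190 and 291 against 101 and 216 CPM in the testes.

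Of the G2 and M phase list, 17 of 30 genes were among the 146 as well, and none of the 25 S phase genes, 3 of which had an unadjusted p under 0.05 in edgeR, a threshold passed by 11.3% of all 10709 genes. Cdca3, a trigger of mitotic entry, stood at 300.4 and 278 CPM in the cycling cells of the TOs and 341 and 218 CPM in those of the testes. In non-cycling cells it stood at 3.599 and 3.09 CPM in the TOs and at 55.6 and 62.2 CPM in the testes, and in all other kept cells at 14.3, 11.4, 176 and 147 CPM. Ccnb2, a mitotic cyclin, stood at 261, 312, 320 and 284 CPM in cycling cells and at 4.81, 2.62, 97.5 and 61.4 CPM in non-cycling cells. For both genes the groups overlapped in cycling cells and did not overlap in non-cycling ones. Without the macrophage-marked cells 43 genes had a called interaction, without the Scrublet doublets 66, without TO replicate 2 301 and without testis replicate 2 106.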

How the data were processed

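The authors sequenced 10x Genomics 3′ libraries and, per the labels, aligned and counted them with Cell Ranger 7.1.0 on mm10. The deposited matrices hold UMI counts per gene and barcode, not normalized. Counts were taken as deposited. Members, marker lists and tests were chosen with earlier results of these data known. Doublets were kept in the main analysis, and Scrublet (in scanpy 1.11.5), with 9.46 to 11.7% of barcodes per library marked at an expected rate of 0.8% per 1000 barcodes, gave an alternative. Cells were thinned without replacement to 2000 UMIs (704, 142, 3558 and 2269 kept cells of TO replicates 1 and 2 and testis replicates 1 and 2 were shallower and left out). CPM were taken from 406064, 873095, 184655 and 316660 UMIs of cycling cells.

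Shares were compared over libraries with the exact two-sided permutation test, with Clopper-Pearson 95% intervals for counting error. Sums per library were fitted with edgeR 4.0.16 (TMM, filterByExpr, quasi-likelihood F test). DESeq2 1.42.0 and the other alternatives are given in the closing section. Germ cells without Vim had at least 3 UMIs of Ddx4, Dazl and Sycp3 together. Genes were named by rule: the rule genes, the 5 somatic markers, the 10 called genes of largest fold per direction with at least 50 CPM, the called and 3 most abundant genes of each list, the 20 genes most raised over non-cycling cells, and up to 5 interaction genes per direction, of which not all are printed and 1 item is not reported here. Cd74 and other genes of single lists in the Leydig-, macrophage-, endothelial- and stroma-led cells were picked after their values were seen. Cdkn1a, Ccnd1, Lhcgr and Ccnb2 are also printed outside these rules. The scripts were tested on simulated data.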

Additional observations from a re-analysis of the deposited data

Results flagged for a closer look

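The share of cells with Pdgfra moved in opposite directions in the groups, which was not tested. It was lower in cycling than in non-cycling somatic cells by -24.8 and -35.7 percentage points in TO replicates 1 and 2, and higher by 17.5 and 5.91 percentage points in testis replicates 1 and 2, a difference between the group means of -42.0 percentage points. After thinning to 2000 UMIs it was lower in cycling cells of all 4 libraries.

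For 169 genes the test of the difference itself, the interaction of condition and cycling in edgeR, passed the threshold. The largest fitted values on the log2 scale were 9.15 for Cd209f, 6.80 for Vsig4, 5.59 for Fxyd2 and 5.45 for Neil3. Cd209f had 4 UMIs in the cycling cells of the TOs and 15 in those of the testes, with 0 CPM in the non-cycling cells of both TOs, so its fitted value depends on the prior count. Vsig4, a macrophage receptor, stood at 150 and 2.29 CPM in the cycling cells of the TOs and at 0 and 75.8 CPM in those of the testes, which overlapped, and TO replicate 1 held 61 of the 63 UMIs in the TOs. In non-cycling cells of the testes it stood at 25.5 and 90.3 CPM. Neil3, a DNA glycosylase of dividing cells, stood at 91.1, 108, 97.5 and 72.6 CPM in cycling cells and at 0.585, 0.469, 15.0 and 19.7 CPM in non-cycling ones. The most negative values were -3.76 for Ly6c1, -3.38 for Slc9a3r2, -3.10 for Epas1, -3.03 for Cxcl12 and -2.83 for Ets1. Groups of 2 libraries were too small for a test of outlying libraries.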

How the results depend on the processing

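The share of cycling cells among somatic cells was lower in the TOs under all alternatives run, with differences from -4.40 to -2.09 percentage points when 1 library was left out. Among all cells kept the difference ran from 0.080 to 0.572 percentage points when 1 library was left out, and thinning to 2000 UMIs turned it to -0.0038. The share with Myh11 turned to 0.317 percentage points without Scrublet doublets, and the share with Pdgfra to 0.788 at a minimum of 2 UMIs. Of the shares of marker-positive cells that were cycling, Hsd3b1 turned to 2.09 and Myh11 to 0.360 with thinning. Those of C1qa and Pdgfra kept their sign with thinning, but the groups were no longer apart. The S phase share turned to -0.0329 percentage points without barcodes of mixed type. With 1 library left out, Myh11 ran from -7.59 to 3.596, the cycling share with Cldn11 from -0.598 to 0.652, and the S phase share from -0.0218 to 0.0352. Of these 3, Myh11 changed sign without testis replicate 1, the cycling share with Cldn11 without TO replicate 2 or testis replicate 2, and the S phase share without TO replicate 1 or testis replicate 1.

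Genes higher in the TOs numbered 90 with DESeq2, 302 with any count, 25 with thinned sums, 14 without barcodes of mixed type and 24 without macrophage-marked cells, and 1 to 254 with 1 library left out. Genes lower in the TOs numbered 289 with any count, 47 when genes were left out from 2 times, 295 with no gene left out, 36 with thinned sums and 50 without barcodes of mixed type, and 14 to 165 with 1 library left out. Interaction genes numbered 66 without Scrublet doublets and 43 without macrophage-marked cells, and 106 to 301 with 1 library left out. Of the named genes, only the called genes of largest fold, the called list genes and the interaction genes were followed, in the alternatives that fitted them. None of these changed direction there. Values of named genes stayed on the same side of the threshold in 319 cases and lost the call in 46 outside the fits with 1 library left out, and in 111 and 49 within them. The cause of these changes was not tested.

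With the replicate number as a block, 167 genes were higher and 164 lower. The numbers do not pair the libraries by label, and the deviations of TO replicate 1 and testis replicate 1 from their group means had a correlation of 0.0555 across genes. The fit on stroma and myoid cells alone was not run, since a library had 5 such cells against a minimum of 10. The marker shares rest on 28 to 80 cycling somatic cells per library, which limits their precision.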
